A study of Homo sapiens with 4 samples.

Results

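The transcripts of 10 ERK pathway feedback genes, which are induced by ERK signalling and mostly act back on it, were examined in U251 and U87, established human glioblastoma cell lines grown in culture. The genes were DUSP4, DUSP5, DUSP6, SPRY2, SPRY4, SPRED1, SPRED2, ETV4, ETV5 and PHLDA1, picked by their symbols as a known set, with earlier results of these data known, and all 10 were present among the 58735 genes of the series. RNA of each line was sequenced as Control and after 48 h with Bru (brusatol, a quassinoid from Brucea plants) at the concentration that the study took as the IC50. This gave 4 libraries in all, with 1 library per condition, and the same 2 lines were used untreated and treated. The labels state neither the Bru concentration used for each line nor whether the Control cells received the solvent, so line and concentration cannot be told apart wherever the lines are compared.

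Growth factor receptors switch on RAS, and RAS passes the signal through RAF and MEK to ERK. Active ERK induces its own brakes at the level of transcription: DUSP phosphatases remove the activating phosphates from ERK, and SPRY and SPRED proteins hold the pathway back at the level of RAS and RAF. ETV4 and ETV5 are ETS factors of the PEA3 group, which are held silent by the repressor CIC until ERK activity removes it, and transcripts of these genes are widely used as a readout of ERK output.

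Before the expression values, 3 promoter sequences are shown, because they hold a binding motif of CIC or of ETS factors within the genes' own start regions. Each window runs from 250 bases before to 50 bases after the start annotated in RefSeq on GRCh38.p14, read 5′ to 3′ on the strand of the gene, which is the minus strand for these 3 genes. The motif is in capitals. The DUSP6 window lies at chr12:89352452-89352751, the SPRY2 window at chr13:80341077-80341376 and the PHLDA1 window at chr12:76031727-76032026. RefSeq starts need not be those of the deposited annotation, and the SPRY2 window lies upstream of the span the files give for SPRY2.
DUSP6: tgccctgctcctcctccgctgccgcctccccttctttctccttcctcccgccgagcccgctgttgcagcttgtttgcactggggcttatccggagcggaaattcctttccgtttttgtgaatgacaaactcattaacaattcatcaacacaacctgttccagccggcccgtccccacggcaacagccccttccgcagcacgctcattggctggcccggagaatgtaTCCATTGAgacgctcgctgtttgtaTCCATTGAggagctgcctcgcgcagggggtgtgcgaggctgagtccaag
SPRY2: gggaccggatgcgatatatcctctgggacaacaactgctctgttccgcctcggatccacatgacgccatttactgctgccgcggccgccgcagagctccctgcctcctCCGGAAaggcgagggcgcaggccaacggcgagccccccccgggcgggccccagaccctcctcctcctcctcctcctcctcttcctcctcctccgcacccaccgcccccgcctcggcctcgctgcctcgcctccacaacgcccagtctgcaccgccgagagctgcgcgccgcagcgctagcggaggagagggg
PHLDA1: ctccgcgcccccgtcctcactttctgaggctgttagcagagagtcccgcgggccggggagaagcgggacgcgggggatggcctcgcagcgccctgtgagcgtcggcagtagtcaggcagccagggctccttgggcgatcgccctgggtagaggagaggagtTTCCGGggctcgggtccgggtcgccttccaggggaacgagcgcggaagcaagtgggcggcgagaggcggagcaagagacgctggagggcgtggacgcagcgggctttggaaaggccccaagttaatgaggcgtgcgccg
In DUSP6 the capitals mark the CIC octamer TCAATGGA, present on the opposite strand and therefore read as TCCATTGA. It occurred from 24 bases before the start and again from base 2 after it. In SPRY2 they mark the ETS core CCGGAA, beginning 142 bases before the start, and in PHLDA1 the same core on the opposite strand, read as TTCCGG and beginning 89 bases before the start.

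The RefSeq table held windows for 6 of the 10 genes, 9 windows in all, and each was searched on both strands for 4 motifs. A CIC octamer (TGAATGAA, TGAATGGA, TCAATGAA or TCAATGGA) was found in 3.77% of the 35116 windows of all genes, and 0.327% held at least 2, as the DUSP6 window did. The ETS core CCGGAA was in 17.2% of all windows, and among the 6 genes in that of PHLDA1 and in 1 of the 3 windows of SPRY2, the one shown. The other SPRY2 windows lie within the span the files give for SPRY2 and held none of the motifs. An AP-1 motif (TGANTCA, the site of FOS and JUN) was in 7.71% of all windows and occurred at 2 positions in 1 of the 2 SPRED2 windows. The cyclic AMP response element TGACGTCA, found in 1.85% of all windows, was in none of the 9. No window of the 10 genes held motifs of more than 1 kind. The remaining 5 windows, among them those of SPRY4 and SPRED1, held none of the 4 motifs. A match is a description of the letters and not a bound site, and no binding was measured here.

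The values were deposited as FPKM, the fragments counted on a gene per kilobase of its length and scaled by a size set for each library. They are levels per length, which allows a rough comparison between genes. The length of each of the 10 genes was that of all its annotated exonic bases, which need not be the length of the transcripts made. Multiplying the FPKM by gene length gave back whole fragments, called reads below, which added up to between 17083896 and 21453561 on genes per library. The size inside the FPKM was not this total. In U251 it was 20974002 in Control and 18533374 in Bru, beside 21453561 and 17847910 reads. In U87 it was 18070193 and 17406238, beside 18260975 and 17083896 reads. The 10 genes had between 131 and 9767 reads each in every library. There was no replicate of any condition. Intervals are exact 95% counting intervals of the reads (Clopper-Pearson for a ratio), they cover counting error only, and they compare libraries and not conditions. A gene of 1 kilobase with 3 reads would have had an FPKM of 0.143 to 0.172, far below any value of the 10 genes. Ratios are log2 ratios on FPKM + 0.1 among the 12949 genes whose FPKM averaged 1 or more over the libraries, a filter that all 10 genes passed, and their intervals are those of the ratio without the added 0.1.

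The libraries were checked against markers of the lines. VIM and CD44, markers of mesenchymal glioblastoma cells, were abundant in all 4 libraries (VIM FPKM 606 to 701, CD44 FPKM 94.5 to 125). NES and SOX2, neural stem cell markers, had an FPKM of 125 and 129 in U251 Control and of 1.46 and 0.00 in U87 Control. All 4 of these markers had intervals below 0 for Bru against Control in U251, where NES was at 50.6 and SOX2 at 91.2 after Bru. NES was past 2-fold lower in both lines, with a log2 ratio of -1.30 in U251 and of -1.23 in U87, where it went from 1.46 to 0.57. The part of such shifts in the results was not tested. The other glial markers listed, GFAP, S100B and OLIG2, did not reach a mean FPKM of 1. GFAP had an FPKM of 2.42, 1.08, 0.21 and 0.15 in U251 Control, U251 Bru, U87 Control and U87 Bru. In the same order S100B was at 0.30, 0.00, 0.00 and 0.00. OLIG2 was at 0.03, 0.06, 0.63 and 1.05, and so was higher in U87, unlike NES and SOX2. Of 10 markers of blood, endothelial, epithelial, neuronal and oligodendrocyte cells, KRT8 alone reached a mean FPKM of 1, and the 10 together summed to an FPKM of 2.78 to 3.23 in each library. AIF1 and MOG, markers of macrophages and of oligodendrocytes, were listed at 0.00.

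The ERK feedback genes were lower in Bru in U251, while in U87 most of them were near the Control level. In U251 all 10 genes had a log2 ratio of Bru to Control below 0, against 52.1% of all genes tested, and it was below -1, that is past 2-fold lower, for 6 of them, against 5.44%. None was past 2-fold higher, which held for 3.36% of all genes. The median over the 10 genes was -1.21 there, beside -0.03 over all genes tested. In U87 the median was -0.18, beside -0.04 over all genes, and 7 of the 10 genes were below 0, against 56.7%. In this line 0 of the 10 genes were past 2-fold lower and 0 past 2-fold higher, against 1.41% and 1.92% of all genes. Added over the 10 genes, FPKM was 225 and 97.6 in Control and Bru of U251, so that 43.5% was left, and 221 and 183 in U87, so that 82.5% was left. In RNA of whole cultures, fewer cells that make a transcript and less of it per cell cannot be told apart.

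**Figure D1:**
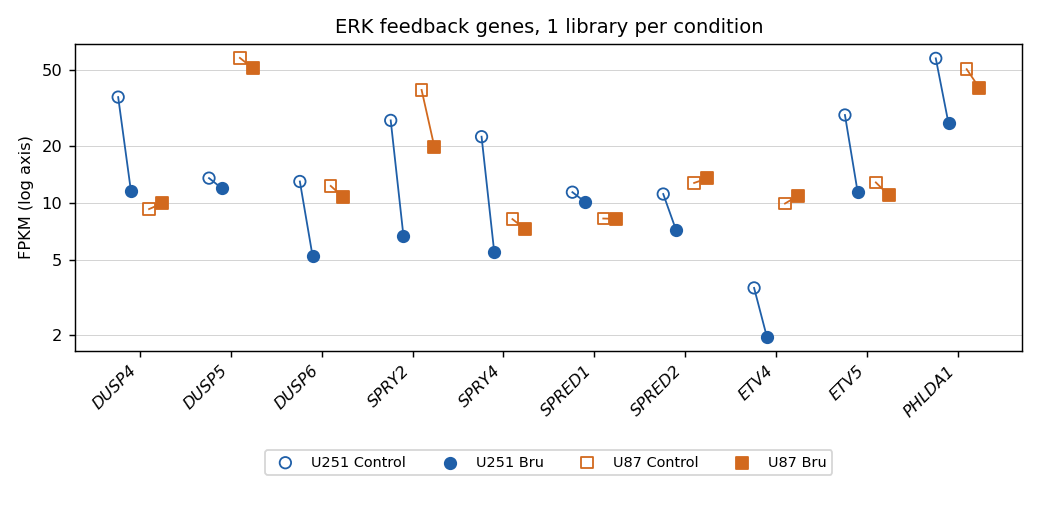
FPKM of the 10 ERK feedback genes on a log axis, 1 point per library, with Control as open and Bru as filled symbols and a line joining the 2 libraries of a line (U251 blue circles, U87 orange squares). SPRY2 in U251 went from 27.2 to 6.68 and SPRY4 from 22.3 to 5.46, while DUSP5 was at 58.0 and 51.3 in U87 and at 13.5 and 11.9 in U251.

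The phosphatases split into 2 patterns. DUSP4 (chromosome 8, minus strand), a nuclear phosphatase of ERK and of the stress kinases JNK and p38, had an FPKM of 36.0 as Control and 11.5 after Bru in U251, and of 9.23 and 9.89 in U87. U251 Control stood far above the other three libraries, which lay close together. Bru against Control gave a log2 ratio of -1.63 in U251 (interval -1.72 to -1.56) and 0.10 in U87 (interval -0.02 to 0.21), which leaves 32.0% of the Control level in U251.

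DUSP6 (chr12:89347232-89353271, minus strand), the cytoplasmic phosphatase specific for ERK, had an FPKM of 12.9 as Control and 5.22 after Bru in U251, and of 12.2 and 10.6 in U87. Here U251 Bru alone was low, and the Control libraries of the lines had nearly the same level. This gave a log2 ratio of -1.29 in U251 (interval -1.47 to -1.15) and -0.20 in U87 (interval -0.33 to -0.07). An antisense gene, AC024909.2, lies within DUSP6 and shares 1875 exonic bases with it, and it had 45, 11, 36 and 18 reads in the same order, beside 448 to 1255 reads on DUSP6. Whether the counting used strand was not given in the sources used here.

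DUSP5 (chr10:110497838-110511544, plus strand), a nuclear phosphatase specific for ERK, differed from DUSP4 and DUSP6. It had an FPKM of 13.5 as Control and 11.9 after Bru in U251, and of 58.0 and 51.3 in U87. Both U87 libraries were far above both U251 libraries, and Bru and Control were close within each line. The log2 ratio was -0.18 in both lines (interval -0.34 to -0.02 in U251 and -0.26 to -0.10 in U87). In U251 the interval held 0 under each of 6 other scalings of the libraries, where the ratio was -0.15 to -0.09.

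The SPRY genes had the lowest ratios of the set in U251. SPRY2 (chr13:80335976-80340951, minus strand), an inhibitor of receptor signalling to RAS, had an FPKM of 27.2 as Control and 6.68 after Bru in U251, and of 39.3 and 19.8 in U87. Within each line Bru was well below Control, and in U87 no other gene of the set had as low a ratio. Its log2 ratio was -2.01 in U251 (interval -2.19 to -1.86), with 24.6% of the Control level left, and -0.99 in U87 (interval -1.10 to -0.88), with 50.3% left. Counted from the lowest ratio among the 12949 genes tested, SPRY2 ranked 108 in U251 and 190 in U87.

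SPRY4 (chr5:142310427-142326455, minus strand), a relative with the same role, had an FPKM of 22.3 as Control and 5.46 after Bru in U251, and of 8.18 and 7.24 in U87. As for DUSP4, U251 Control was the one high library. The log2 ratio was -2.01 in U251 (interval -2.15 to -1.91), rank 107 from the lowest, and -0.17 in U87 (interval -0.31 to -0.04). The U87 interval held 0 under 3 other scalings. SPRY4-AS1 and the small RNA features RF02038 and RF02039, all on the opposite strand, overlap the span of SPRY4 without sharing exonic bases, and had at most 54 reads in a library.

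The SPRED genes, which bring neurofibromin to RAS and so switch RAS off, had ratios nearer to 0. SPRED2 (chr2:65310851-65432637, minus strand) had an FPKM of 11.1 as Control and 7.18 after Bru in U251, and of 12.7 and 13.4 in U87. Its log2 ratio was -0.62 in U251 (interval -0.76 to -0.49), with 64.7% of the Control level left, and 0.08 in U87 (interval -0.04 to 0.20), where 4 of the 6 other scalings gave intervals above 0. U251 Bru was again the low library, by less than 2-fold. AC012370.1, in an intron of SPRED2, had at most 1 read in a library.

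SPRED1 (chr15:38252326-38357249, plus strand) was the most even of the 10 genes. It had an FPKM of 11.3 as Control and 10.1 after Bru in U251, and of 8.23 and 8.21 in U87. The log2 ratio was -0.17 in U251 (interval -0.27 to -0.07), an interval that held 0 under 3 other scalings, and -0.00 in U87 (interval -0.12 to 0.11).

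Both ETS factors were lower in Bru in U251. ETV5 (chr3:186046308-186110318, minus strand) had an FPKM of 28.99 as Control and 11.4 after Bru in U251, and of 12.8 and 11.0 in U87. U251 Control was the one high library, and the treated U251 library was at the level of both U87 libraries. On the log2 scale the ratio was -1.34 in U251 (interval -1.45 to -1.26), with 39.2% left, and -0.22 in U87 (interval -0.34 to -0.10). DGKG, on the same strand, shares 164 exonic bases with ETV5 and had 164, 160, 930 and 680 reads in the same order, beside 3528, 1222, 1339 and 1107 on ETV5, so part of the ETV5 reads of U87 cannot be assigned with certainty. ETV5-AS1 had 25, 9, 5 and 9 reads, and RF00017 had at most 1.

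ETV4 (chr17:43527844-43579620, minus strand) was the least abundant of the set in U251. It had an FPKM of 3.54 as Control and 1.96 after Bru in U251, and of 9.88 and 10.8 in U87. Both U87 libraries were above both U251 libraries, as for DUSP5. Bru against Control gave a log2 ratio of -0.82 (U251) and of 0.13 (U87). The U251 value rested on 268 and 131 reads, so its interval, -1.17 to -0.55, was the widest of the set and reached past 2-fold, while the U87 interval was -0.02 to 0.29, and 4 of the 6 other scalings gave U87 intervals above 0. DHX8, on the opposite strand, overlaps the span of ETV4 over 51777 bases, with 68 exonic bases shared. It had 2277, 2104, 1624 and 1500 reads, beside 268, 131, 644 and 681 on ETV4. Since strand use was not given, part of the ETV4 reads cannot be assigned with certainty.

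PHLDA1 (chr12:76025447-76033932, minus strand) encodes a pleckstrin homology-like domain protein and belongs to commonly used transcript sets for MEK and ERK output. It had an FPKM of 57.7 as Control and 26.2 after Bru in U251, and of 50.6 and 40.3 in U87, with the most reads of the set. Both Bru libraries were below both Control libraries. Its log2 ratio was -1.14 in U251 (interval -1.19 to -1.09), and -0.33 in U87 (interval -0.38 to -0.28), where 79.6% of the Control level was left. The antisense gene AC011611.3 shares 553 exonic bases with PHLDA1 and had at most 11 reads in a library. AC011611.4, also antisense, shares all of its 779 exonic bases with PHLDA1 and had 0. Since strand use was not given, reads on the shared bases cannot be assigned with certainty.

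Around the 2-fold limit in U251, PHLDA1 at -1.14 was the gene just inside it and ETV4 at -0.82 the gene just outside. In U87, SPRY2 at -0.99 was the gene nearest to it. By the second rule, an interval that leaves out 0, all 10 genes were lower in U251, against 35.9% of all genes tested, and 0 were higher, against 30.9%. In U87 there were 6 lower, against 28.0% of all genes, namely DUSP5, DUSP6, SPRY2, SPRY4, ETV5 and PHLDA1, with 0 higher, against 15.7%, and the 4 other intervals held 0. With the scaling of the deposited values, these 6 genes were lower in both lines beyond counting error, which held for 18.0% of all genes. DUSP5 left this group under each of the 6 other scalings, through its U251 interval, and SPRY4 under 3 of them, through its U87 interval. Under the 6 other scalings of the libraries, 8 or 9 genes were lower in U251 and 5 or 6 in U87. In U87, DUSP4, SPRED2 and ETV4 had intervals above 0 under 4 of these scalings, so that 3 genes were higher there, and 0 under the other two.

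**Figure D2:**
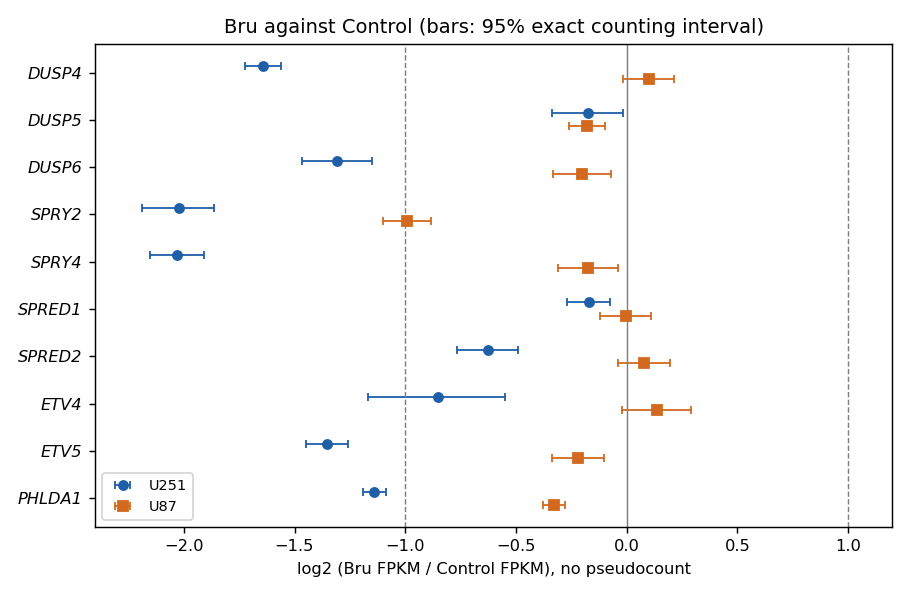
Log2 ratio of Bru to Control FPKM without an added constant for each gene, U251 as blue circles and U87 as orange squares, with bars for the exact 95% counting interval and dashed lines at 2-fold. In U251, 6 genes lie wholly left of the dashed line at -1, from SPRY4 and SPRY2 near -2 to PHLDA1, and in U87 the interval of SPRY2 spans that line.

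The size of the response was then compared between the lines with the reads of all 4 libraries, as the difference of the 2 log2 ratios, U87 minus U251, and its conditional exact interval. The median difference over the 10 genes was 1.01, beside -0.01 over all genes tested. The interval lay above 0 for 9 of the 10 genes and below 0 for 0 of them, against 24.1% and 25.7% of all genes. A value above 0 means a ratio closer to or above Control in U87. The difference was 1.85 for SPRY4 (interval 1.67 to 2.04) and 1.74 for DUSP4 (interval 1.60 to 1.88), and these were the largest of the set.

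A second group had differences near 1 on the log2 scale. They were 1.13 for ETV5 (interval 0.98 to 1.28), 1.11 for DUSP6 (interval 0.90 to 1.31), 1.03 for SPRY2 (interval 0.84 to 1.23) and 0.99 for ETV4 (interval 0.64 to 1.34). PHLDA1 followed with 0.81 (interval 0.74 to 0.88) and SPRED2 with 0.71 (interval 0.52 to 0.89). SPRY2, the gene with the lowest ratio in U87, was therefore still lower in U251. For SPRED1 the difference was 0.17 (interval 0.01 to 0.32), and the interval held 0 under 5 of 6 other scalings. For DUSP5 it was -0.00 (interval -0.18 to 0.18), so the response of DUSP5 could not be told apart between the lines at this depth.

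**Figure D3:**
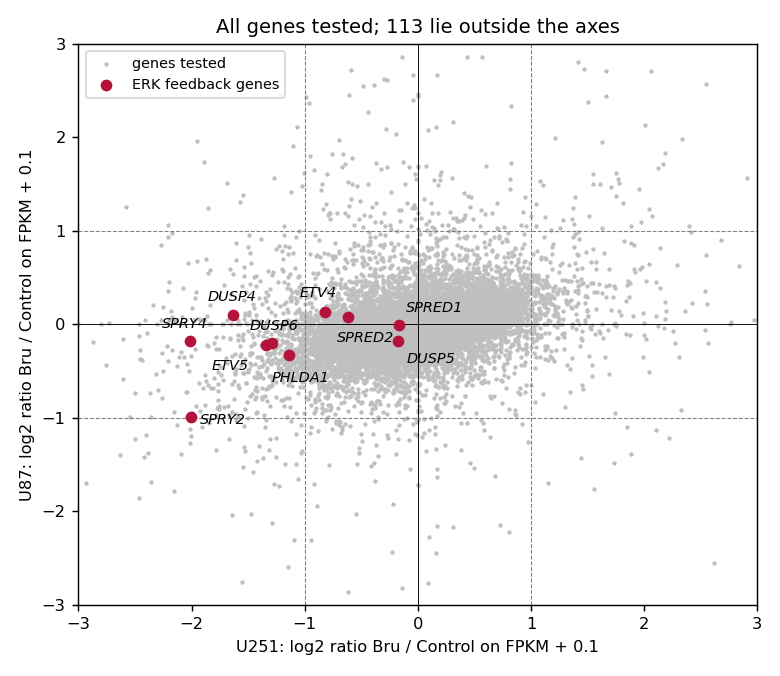
Log2 ratio of Bru over Control, with 0.1 added to each FPKM, in U251 (horizontal) and in U87 (vertical) for the genes tested (grey) and the 10 ERK feedback genes (red), with dashed lines at 2-fold, and 113 genes outside the axes. SPRY2 lies lowest on both axes among the 10 genes together with SPRY4 in U251, and most of the others lie left of the grey centre at a U87 value near 0.

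Without treatment, most of these genes differed in level between the lines by their intervals, as did most genes tested. U87 Control was past 2-fold lower than U251 Control for DUSP4, SPRY4 and ETV5, that is for 3 of 10 genes against 16.0% of all genes, and past 2-fold higher for DUSP5 and ETV4, 2 of 10 against 14.5%. The log2 ratio of U87 to U251 in Control was -1.95 for DUSP4 (interval -2.06 to -1.87), -1.43 for SPRY4 (interval -1.55 to -1.34) and -1.18 for ETV5 (interval -1.28 to -1.09). It was 2.10 for DUSP5 (interval 1.99 to 2.23) and 1.45 for ETV4 (interval 1.27 to 1.69). The set as a whole had no common direction here: the intervals of 5 genes lay below 0 and of 4 above it, against 40.9% and 40.1% of all genes, and the median was -0.13 beside -0.01.

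In the Bru libraries the same ratio was past 2-fold higher in U87 for 4 of 10 genes, DUSP5 (2.10), DUSP6 (1.01), SPRY2 (1.55) and ETV4 (2.41), against 14.3% of all genes, and past 2-fold lower for 0, against 15.0%. DUSP4 (-0.22) and ETV5 (-0.05) were near equal between the treated lines. By the intervals, 7 genes were higher in U87 and 2 lower, against 38.5% and 40.8% of all genes, and the median was 0.75 beside -0.02. These comparisons share their libraries with the ones above and are given side by side only.

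The order of the levels changed with line and treatment. Within a library this order also depends on the annotated gene lengths, which the counting intervals leave out. In U251 Control it ran from PHLDA1 (57.7) through DUSP4, ETV5, SPRY2, SPRY4, DUSP5, DUSP6, SPRED1 and SPRED2 to ETV4 (3.54). By exact Poisson intervals of the reads, ETV5 and SPRY2, DUSP5 and DUSP6, and SPRED1 and SPRED2 were neighbours with overlapping intervals there. In U251 Bru the order was PHLDA1 (26.2), DUSP5, DUSP4, ETV5, SPRED1, SPRED2, SPRY2, SPRY4, DUSP6 and ETV4 (1.96). DUSP5 thus stood second after treatment, and its interval overlapped that of DUSP4, as did those of DUSP4 and ETV5, SPRED2 and SPRY2, and SPRY4 and DUSP6.

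In U87 the leading genes were DUSP5, PHLDA1 and SPRY2 in both libraries, at 58.0, 50.6 and 39.3 in Control and at 51.3, 40.3 and 19.8 in Bru. The other 7 genes lay between 8.18 and 12.8 in Control and between 7.24 and 13.4 in Bru. Several of these neighbours overlapped in their counting intervals, among them SPRED1 and SPRY4, which were last in both libraries.

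The rest of the pathway was read from fixed gene lists. Of the RAS-RAF-MEK-ERK cascade itself, 17 of 19 genes were tested and 0 were past 2-fold in either line, with medians of 0.05 and -0.05 for U251 and U87 on the log2 scale. Of all genes tested, 5.44% were past 2-fold lower and 3.36% higher in U251, and 1.41% and 1.92% in U87. By the intervals, 4 cascade genes were lower and 7 higher in U251, against 35.9% and 30.9% of all genes. In U87, 2 were lower and 2 higher, against 28.0% and 15.7%. PTPN11, the phosphatase SHP2 that links receptors to RAS, had an FPKM of 37.5, 41.3, 58.0 and 62.3 in the 4 libraries (Control and Bru of U251, then of U87), and MAP2K2, one of the MEK kinases, had 36.9, 43.3, 59.4 and 57.6. The lowest ratio of the cascade in U251 was -0.57, that of MAPK3 (ERK1, named after its value was seen). There 8 of the 10 feedback genes were lower than MAPK3, beside 16.0% of all genes tested at or below it. In U87 the ratio of MAPK3 was -0.47 (interval -0.59 to -0.35). Here 1 of the 10 feedback genes, SPRY2, was lower, near the share of 7.38% of all genes at or below MAPK3. Of 9 adaptors and binding partners that tune the cascade, 0 were past 2-fold in either line, with medians of -0.08 and -0.17. Among these, PEBP1, an inhibitor of RAF, had log2 ratios of -0.20 and -0.18, and PEA15, which holds ERK in the cytoplasm, 0.44 and -0.09.

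Of the receptor tyrosine kinases, 9 of 15 were tested and 2 were past 2-fold lower in U251, against 5.44% of all genes. PDGFRA, a receptor of platelet-derived growth factor, had a log2 ratio of -1.28 (interval -1.55 to -1.12) from an FPKM of 3.48 to 1.38. FGFR3, a fibroblast growth factor receptor, had -1.05 (interval -1.43 to -0.78) from 2.70 to 1.26. Both had an FPKM of at most 0.13 in U87. They reached the mean FPKM of 1 only through U251, mainly its Control library, so the filter itself favoured a fall there. In U87 PDGFRA had 22 and 15 reads and FGFR3 had 1 and 4, too few to read a response from their ratios. The receptors had medians of -0.20 (U251) and -0.00 (U87). In U87, 0 were past 2-fold, where 1.41% of all genes were past 2-fold lower and 1.92% higher.

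Of the growth factor ligands, 11 of 17 were tested, with medians of -0.67 (U251) and -0.22 (U87). TGFA, a ligand of EGFR, had an FPKM of 18.1, 3.94, 9.92 and 8.18 in the 4 libraries in the order above. U251 Bru was the lowest of the 4, and the log2 ratio was -2.18 in U251 (interval -2.37 to -2.04) and -0.28 in U87 (interval -0.42 to -0.13). EGF, another ligand of EGFR, had -1.31 in U251 (interval -1.69 to -1.09), from 2.86 to 1.09, and was at most 0.08 in U87. Like PDGFRA and FGFR3, EGF passed the filter only through U251. No other tested ligand was past 2-fold in either line. Past 2-fold lower were thus 2 of 11 in U251 and 0 in U87, against 5.44% and 1.41% of all genes. Past 2-fold higher were 0 in both lines, against 3.36% and 1.92%. Some of the other tested ligands were all but absent from a line. PDGFD had 0 reads in both U87 libraries, and in U251 Control and Bru HGF had 1 and 1 reads and EREG 2 and 1. Their ratios near 0 in those lines enter the medians and counts but say nothing about a response.

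Among close relatives of the 10 genes, 10 of 13 were tested, and they did not share 1 direction. SPRY1, another SPRY gene, went with SPRY2 and SPRY4 in U251, at an FPKM of 12.4 in Control and 2.95 in Bru (log2 ratio -2.03, interval -2.28 to -1.85), and had 1 read in U87 Control and 0 in U87 Bru. ETV1, the remaining factor of the PEA3 group, had a log2 ratio of -1.05 in U251 (interval -1.19 to -0.94) and -0.37 in U87 (interval -0.46 to -0.28). DUSP10, a phosphatase of JNK and p38, was higher in Bru, with 1.09 in U251 (interval 0.88 to 1.34) and 0.73 in U87 (interval 0.44 to 1.06). The relatives had medians of -0.34 (U251) and -0.20 (U87). SPRY1 passed the filter only through U251, and its U87 ratio, which rests on 1 read, is part of the U87 median.

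Besides ETV1, ETV4 and ETV5, described above, a list of 9 genes held other ETS factors together with CIC and its partner ATXN1L. Of these, 0 were past 2-fold in either line, with medians of -0.05 (U251) and 0.07 (U87). Of all genes tested, 5.44% were past 2-fold lower and 3.36% higher in U251, and 1.41% and 1.92% in U87. In a list of 9 genes, a count of 0 is near these shares. CIC had an FPKM of 17.2, 13.9, 15.3 and 13.5 in the 4 libraries, and ETS1, an ETS activator, had 18.0, 20.8, 14.8 and 18.3. These are transcript levels, and neither the proteins nor their phosphorylation were measured by this assay.

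Of 10 other transcripts known to follow ERK activity, all tested, 9 had intervals below 0 in U251 and 1 above it, against 35.9% and 30.9% of all genes. In U87 there were 4 below and 2 above, near the shares of 28.0% and 15.7% of all genes, and 4 that held 0. The 2 above, named after their values were seen, were FOS at 0.85 (interval 0.78 to 0.92) and EGR1 at 0.37 (interval 0.31 to 0.43). In U251 their log2 ratios were -0.34 and -0.40. The 4 below in U87 were IER3, CCND1, MYC and FOSL1, from -0.37 to -0.05. Past 2-fold lower were 4 in U251 and 0 in U87, against 5.44% and 1.41% of all genes, with medians of -0.55 and 0.04. LIF, a cytokine, had an FPKM of 79.9, 21.9, 22.3 and 23.7 in the 4 libraries, so that U251 Control was the one high library, as for DUSP4. CCND1, the cyclin of G1 phase, had a log2 ratio of -1.59 in U251 (interval -1.65 to -1.54) and -0.11 in U87 (interval -0.15 to -0.08). IER3, an early response gene, had -1.53 (interval -1.84 to -1.26) and -0.37 (interval -0.49 to -0.24), and EPHA2, a receptor of ephrins, had -1.06 (interval -1.11 to -1.02) and -0.01 (interval -0.09 to 0.06). The difference between the lines had an interval above 0 for 9 of these 10 genes, against 24.1% of all genes.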

How the data were processed

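RNA of 4 libraries was sequenced as paired-end reads on an Illumina platform. The authors deposited FPKM per gene with the gene lengths they used. HISAT2 2.0.5, StringTie 1.3.3b, featureCounts 1.5.0-p3 and DESeq2 1.16.1 are named in the submitters' processing notes, with no role given. The notes name hg18, whereas coordinates and strands of all 58735 genes are those of GENCODE release 29 on GRCh38, which are used here. FPKM times gene length was a whole multiple of 1 step for 100% of values in each library (largest deviation 5.10e-05 reads). This gave the reads and the library sizes used for scaling (17406238 to 20974002). Mitochondrially encoded genes took 2.43% to 4.06% of reads.

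Log2 ratios used FPKM + 0.1 and a mean FPKM of at least 1, and called means an absolute log2 ratio above 1. Ratio intervals were exact Clopper-Pearson limits at 95%, and differences between lines used the conditional exact odds ratio. No p-value was computed, since each condition had 1 library. The scripts (Python 3.11.15, scipy 1.17.1) were tested on simulated data. The genes and lists were chosen with earlier results of these data known. Named besides the 10 genes were, per list, up to 4 genes past 2-fold, otherwise the 2 with the most reads, and every gene overlapping one of the 10. Where a symbol had 2 identifiers (IGF2), the one with more reads was used. Alternatives were other pseudocounts, scalings and filters. No promoter entry was matched for DUSP4, DUSP5, ETV4 and ETV5.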

Additional observations from a re-analysis of the deposited data

Results flagged for a closer look

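For 9 of the 10 genes the log2 ratio of Bru to Control differed between the lines beyond counting error, and each difference, U87 minus U251, was above 0. It was 1.85 for SPRY4, 1.74 for DUSP4, 1.13 for ETV5, 1.11 for DUSP6, 1.03 for SPRY2, 0.99 for ETV4, 0.81 for PHLDA1, 0.71 for SPRED2 and 0.17 for SPRED1, the last of which did not hold under 5 of 6 other scalings. An interval above 0 held for 24.1% of all genes tested and one below 0 for 25.7%. The comparison is between 4 libraries without replicates, so a spread between cultures is not part of these intervals, and line and Bru concentration cannot be told apart.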

How the results depend on the processing

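Under 11 alternatives (pseudocounts of 1 and 0.01, 6 other scalings, no filter, and minimum mean FPKM of 0.1 and 5), the count of feedback genes past 2-fold stayed at 6 in U251 and 0 in U87, and the count for U87 Control against U251 Control at 5. Their median ran from -1.22 to -1.13 in U251 and from -0.18 to -0.12 in U87, while the median of all genes ran from -0.03 to 0.05 and from -0.05 to 0.01. No called ratio changed sign. The members of the set nearest to 0 depended on the scaling, as given with DUSP5, SPRED1 and SPRY4 above, and DUSP4 in U87 had an interval above 0 under 4 of 6 scalings (ratio 0.14 to 0.15).

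The short lists moved more. In U251, the median of the relatives was -0.071 as TPM and -0.15 with no filter or a minimum of 0.1, and 1 was past 2-fold with a pseudocount of 1 or a minimum of 5. The receptor median was -0.063 by total reads, -0.071 without mitochondrially encoded genes, -0.31 with no filter and 0.21 with a minimum of 5. Receptors past 2-fold were 0 with a pseudocount of 1 or a minimum of 5, and 1 by total reads, the 75th percentile or without mitochondrially encoded genes. The ligand median was -0.57 with a pseudocount of 1 and -0.092 with no filter, and 1 ligand was past 2-fold with a pseudocount of 1 or a minimum of 5. With a minimum of 5, the median of the adaptors was 0.20 and that of the other ERK-linked transcripts -0.80. In U87, the median of the relatives was -0.0453 as TPM and 0.13 with no filter or a minimum of 0.1, and 1 was past 2-fold under these settings and with a pseudocount of 0.01. In U87, 1 receptor was past 2-fold with a pseudocount of 0.01. The ligand median in U87 was -0.091 with a pseudocount of 1 and -0.097 with a minimum of 5, and 1 ligand was past 2-fold with no filter or a minimum of 0.1. The filters change which genes are counted, and the cause of the other shifts was not tested.

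No paired analysis was possible because each condition has 1 library, and no replicate was left out for the same reason. All intervals leave out the spread between cultures. ETV4 in U251, with 131 reads in Bru, was limited most by depth.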
